A study of Mus musculus with 4 samples.

Results

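The genes described are 8 actin-binding or contractile genes in basal cells of the mouse trachea, out of 33697 features counted: Cald1, Tpm1, Tpm2, Tpm4, Myl9, Tagln, Cnn1 and Acta2. They were chosen after Cald1 had been seen to be lower in knockout basal cells and Tpm2 higher in dorsal ones, so their knockout and region ratios in basal cells are given as a description. All 8 genes were present in every library, and their level was followed in basal, secretory, fibroblast and smooth muscle cells. Cald1, Tpm1 and Tpm4 were spread over many basal cells, and so was Tpm2 in dorsal trachea. Most UMIs of Acta2, and in control ventral trachea of Tagln, came from a few ventral cells. In ventral trachea Tpm2 was concentrated in these few cells too.

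Actin filaments bear most of the tension inside a cell, and non-muscle or smooth muscle myosin pulls on them once its regulatory light chain is phosphorylated. Tropomyosins lie along the filament and set which proteins can bind it, while caldesmon and calponin bind both actin and tropomyosin and restrain the myosin motor. Smooth muscle cells use dedicated forms of these proteins (Acta2, Myh11, Cnn1, Tagln), whereas Tpm4 and short forms of Cald1 and Tpm1 occur in most cells. Basal cells are the stem cells of the airway lining, sit on the basement membrane and carry Trp63 and Krt5. Myoepithelial cells of the submucosal glands also carry Krt5, Krt14 and Trp63, but in addition they express smooth muscle genes and contract.

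The 4 groups were knockout dorsal, control dorsal, knockout ventral and control ventral trachea, each 1 library. Every mouse carried P63-CreER, a tamoxifen-activated Cre expressed where P63 is, together with Ki67-lsl-Dre and Rosa26-rsr-GFP, a pair of alleles that mark basal cells once they divide. Knockouts were Ctnnb1-fl/fl and controls were Ctnnb1-fl/+, so the controls also lost 1 copy of Ctnnb1, which encodes beta-catenin. All mice received tamoxifen, and the tracheae were taken 10 days later, microdissected into their dorsal and ventral sides, and dissociated with papain. How many mice each library holds, and their age, is not stated. A ratio between 2 libraries therefore carries no test, and the intervals below cover counting error only.

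The libraries held 6744, 13962, 7668 and 11150 barcodes and between 144851737 and 286711618 UMIs (unique molecular identifiers, 1 per captured RNA molecule). Between 21 and 57 barcodes were shared by any pair of libraries. Basal cells (at least 1 Trp63 UMI and at least 3 Krt5 UMIs per 10000) numbered 1007 in knockout dorsal, 2277 in control dorsal, 547 in knockout ventral and 934 in control ventral trachea. All 9 basal markers were present in each library, with a summed level between 7843 and 9013 CPM. CPM are UMIs of a class summed within a library and scaled to a total of 1000000. Median depth was 20519, 16111, 22697 and 22278 UMIs per basal cell in that order of libraries, and ribosomal protein genes took 20.9%, 15.7%, 17.2% and 17.5% of their UMIs. Ctnnb1 stood at 206 and 280 CPM in knockout dorsal and control dorsal basal cells, and at 228 and 291 in knockout ventral and control ventral ones. In fibroblasts its knockout over control ratios were 0.760 dorsal and 0.833 ventral, against 0.736 and 0.781 in basal cells. Which exons are deleted is not stated, and the UMIs were read from the 5′ end of the RNA, so this level does not check the labels.

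Cald1, the gene of caldesmon, was lower in knockout than in control basal cells of both regions and lower in dorsal than in ventral basal cells of both genotypes. Its level was 13.3 CPM in knockout dorsal basal cells, against 46.9 in control dorsal ones. It was 56.4 CPM in knockout ventral basal cells, against 104 in control ventral ones. Knockout dorsal cells thus had the lowest level and control ventral cells the highest, and knockout ventral cells lay close to control dorsal cells. The knockout over control ratio was 0.285 (95% interval 0.253 to 0.320) in dorsal cells and 0.540 (0.495 to 0.587) in ventral cells, both on the linear scale of CPM.

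The share of basal cells with a Cald1 UMI followed the same order. After each cell was thinned to 5000 UMIs, the share was 6.78% (exact 95% interval 5.30% to 8.52%) in knockout dorsal and 17.2% (15.7% to 18.9%) in control dorsal trachea. It was 17.4% (14.3% to 20.9%) in knockout ventral and 26.7% (23.9% to 29.7%) in control ventral trachea. Without thinning, the 4 shares were 17.6%, 31.4%, 36.6% and 55.7%. Immune cells, which should lack the gene, had shares of 0% (0 of 200 cells, which allows up to 1.5%), 0.935%, 1.36% and 1.81% after the same thinning, at median depths of 11596, 7976.5, 8501 and 8140 UMIs.

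**Figure D1:**
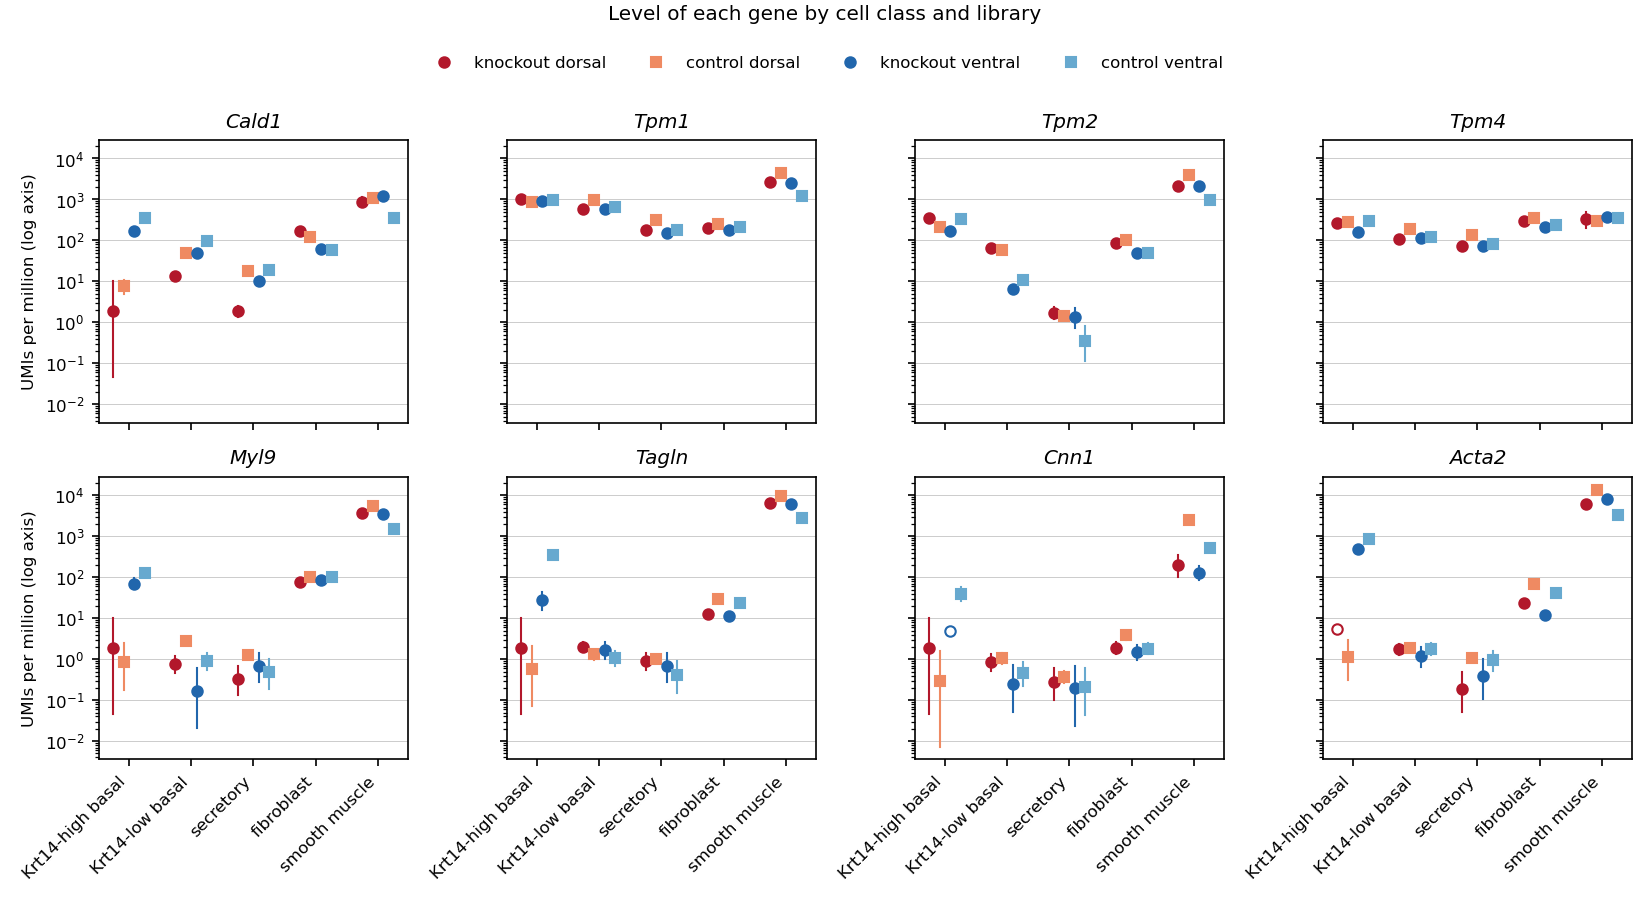
Level of each of the 8 genes in CPM (log axis) in 5 cell classes, with 1 point per library and bars for the 95% counting interval. Open points are libraries with 0 UMIs, drawn at the limit that 3 counts allow. Acta2, Tagln and Myl9 are high in ventral Krt14-high basal cells and near the level of Krt14-low cells in dorsal ones, while Tpm1 is higher in basal than in secretory cells and fibroblasts and highest in smooth muscle cells.

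Between knockout and control, Cald1 in secretory cells was on the same side as in basal cells. In dorsal fibroblasts it was on the other side, and in ventral ones it had no difference beyond counting error. Secretory cells (at least 20 Scgb1a1 UMIs per 10000, with Epcam and no Trp63), which descend from basal cells, had 1.87 CPM of Cald1 in knockout dorsal and 18.2 in control dorsal trachea. In ventral trachea they had 9.94 in the knockout and 18.6 in the control. The ratios were 0.103 (0.0733 to 0.141) and 0.534 (0.421 to 0.672), and all these levels were under the 20 CPM required for a call. Fibroblasts (at least 3 Col1a2 UMIs) had 169 CPM of Cald1 in knockout dorsal, 123 in control dorsal, 62.6 in knockout ventral and 58.7 in control ventral trachea. Their knockout over control ratios were 1.37 (1.30 to 1.45) and 1.07 (0.984 to 1.16). The dorsal over ventral ratio of Cald1 was 0.237 in knockout and 0.449 in control basal cells, but 2.70 in knockout and 2.10 in control fibroblasts. In secretory cells it was 0.188 (0.127 to 0.273) in the knockout and 0.975 (0.857 to 1.11) in the control, so that secretory cells of the controls had no difference beyond counting error. Control ventral secretory cells were shallow, at a median of 11694 UMIs against 38489 in knockout dorsal, 35196 in control dorsal and 33097 in knockout ventral trachea. Their summed 4 chondrocyte markers stood at 36.6 CPM, against 0.187, 3.43 and 0.869 in that order. The part of both in the ratios was not tested.

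**Figure D2:**
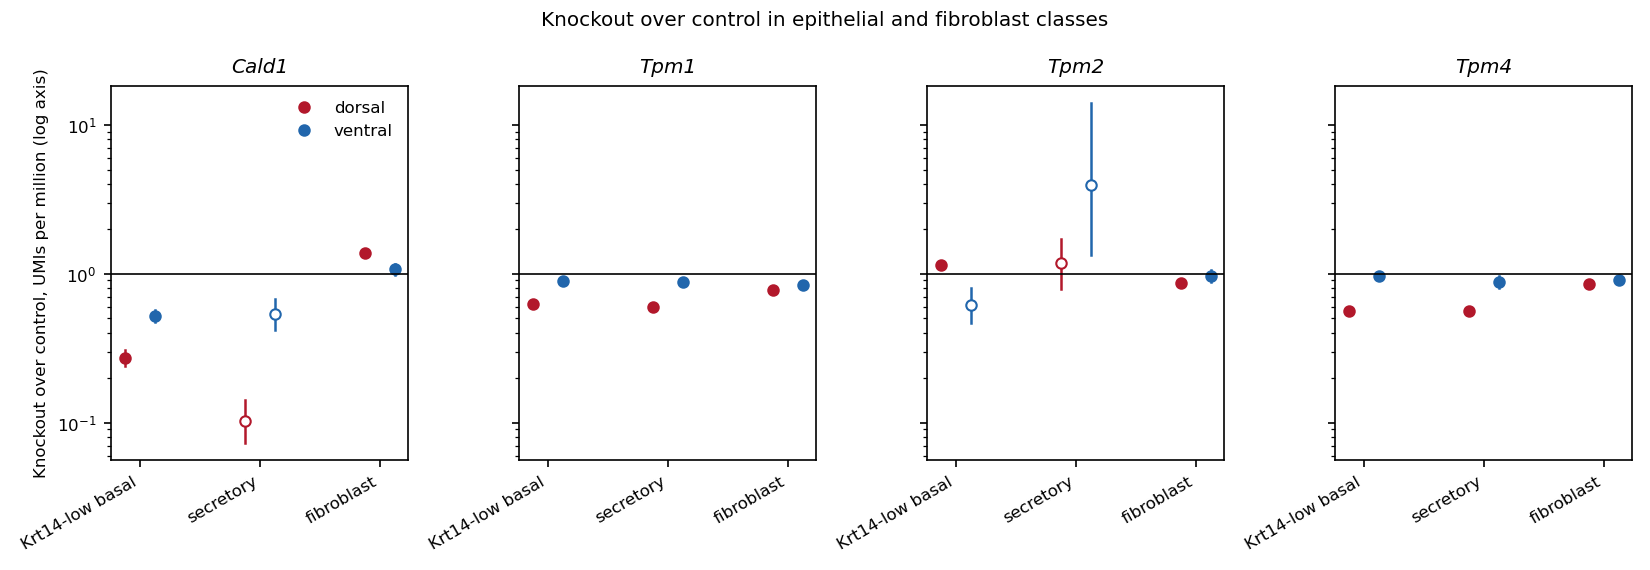
Knockout over control ratio of CPM (log axis) for Cald1, Tpm1, Tpm2 and Tpm4 in Krt14-low basal, secretory and fibroblast cells, with 95% counting intervals. Open points are ratios with under 20 CPM in both libraries. Cald1 lies below 1 in both epithelial classes. In fibroblasts it lies above 1 dorsally, and its ventral interval includes 1. The dorsal Tpm1 and Tpm4 ratios are lower in the epithelial classes than in fibroblasts.

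A pair of properties of the dorsal knockout library moved with its low values and their part in the result was not tested. Ribosomal protein genes took a larger share of its basal UMIs, as given above, and its ratios to the control fell with transcript length (Spearman rho -0.48 over 99.7% of the genes with 20 CPM in 1 library of the pair). Genes were put into 4 groups of like size by the length of their longest transcript, and Cald1, with 4777 bases, fell in the group next to the longest. The median log2 ratio in dorsal basal cells was -0.28 in the 1605 genes of that group and -0.43 in the 1604 genes with the longest transcripts, against -0.17 over all genes. Of the genes in Cald1's group 0.249% had a lower ratio than Cald1, and of the longest 0.312%. In ventral cells rho was -0.18, the medians of these 2 groups were -0.03 and -0.06, and 0.186% and 0.496% of their genes had a lower ratio than Cald1.

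The tropomyosins differed among themselves. Tpm1, a tropomyosin of both muscle and non-muscle cells, had 606 CPM in knockout dorsal and 955 in control dorsal basal cells, and 606 in knockout ventral and 672 in control ventral ones. The control dorsal cells were the high ones, and both knockouts had the same level. Tpm4, a non-muscle tropomyosin, had 112 and 201 CPM in knockout and control dorsal basal cells, and 117 and 125 in knockout and control ventral ones, so that again the control dorsal library stood apart. The dorsal knockout over control ratios were 0.635 (0.623 to 0.647) for Tpm1 and 0.558 (0.535 to 0.583) for Tpm4. The ventral ratios were 0.901 (0.877 to 0.927) and 0.938 (0.880 to 0.9995). The dorsal Tpm1 ratio was 0.691 with size factors in place of total UMIs and 0.717 with a stricter basal gate, both within 1.5-fold. Tropomyosin genes are alike in sequence, so some of their UMIs may be assigned to the wrong one.

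Tpm2, the beta-tropomyosin of smooth and slow muscle, was higher in dorsal than in ventral basal cells of both genotypes. It had 72.7 CPM in knockout dorsal and 70.4 in control dorsal basal cells, against 14.7 in knockout ventral and 20.8 in control ventral ones. The dorsal over ventral ratio was 4.96 (4.26 to 5.81) in the knockout and 3.39 (3.07 to 3.74) in the control, while the knockout over control ratios were 1.03 (0.975 to 1.09) dorsal and 0.705 (0.591 to 0.839) ventral. With doublets removed at a fixed rate in every library, the ventral knockout over control ratio was 1.07 and the dorsal over ventral ratio of the controls 5.26. Without Krt14-high cells, Tpm2 had 66.7 and 6.52 CPM in knockout dorsal and knockout ventral cells and 58.6 and 10.7 in control dorsal and control ventral ones, and the dorsal over ventral ratios were 10.2 and 5.5. Fibroblasts also had more Tpm2 dorsally, with ratios of 1.82 in the knockout and 2.02 in the control. Of basal cells thinned to 5000 UMIs, 18.3% had a Tpm2 UMI in knockout dorsal and 21.2% in control dorsal trachea, against 5.14% in knockout ventral and 4.51% in control ventral trachea; in immune cells the share was at most 0.935%.

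**Figure D3:**
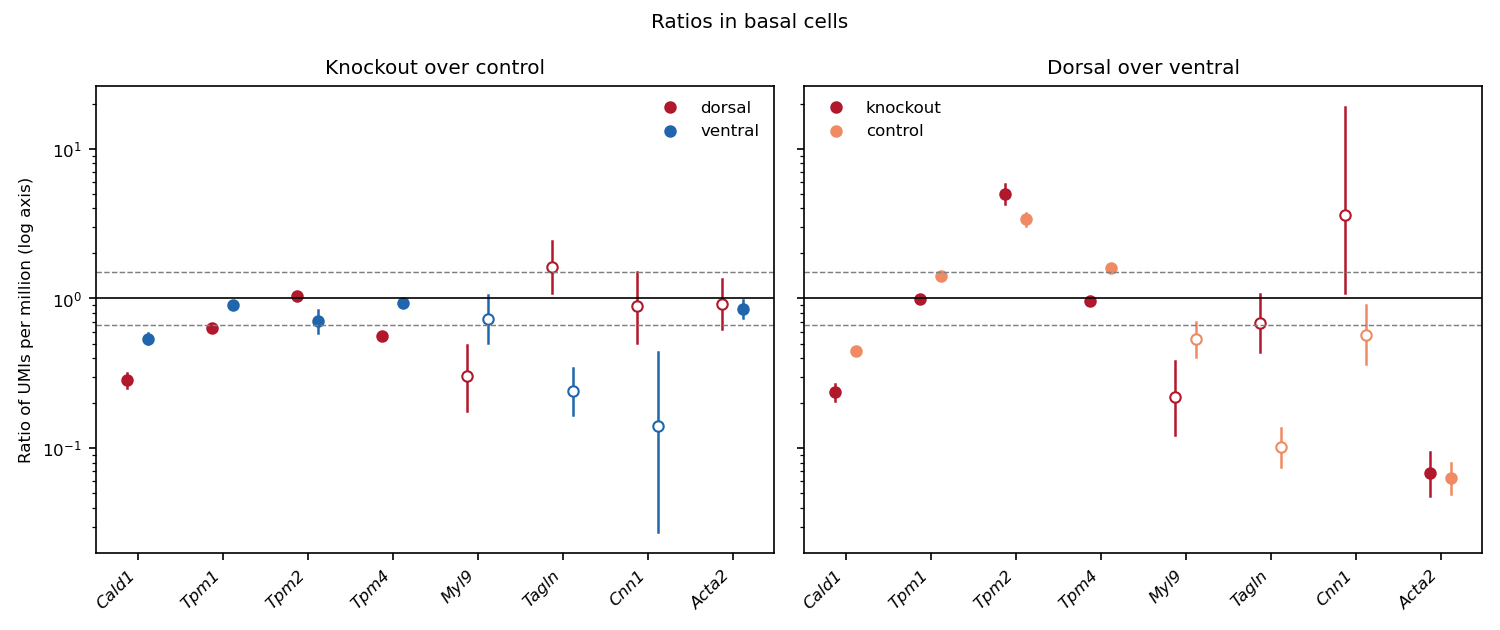
Ratios of CPM (log axis) in basal cells for the 8 genes, knockout over control on the left and dorsal over ventral on the right, with 95% counting intervals. Filled points had at least 20 CPM in 1 library of the pair, open points did not, and dashed lines mark 1.5-fold. Cald1 is below 1 in all 4 comparisons and Tpm2 is above 1 in both dorsal over ventral comparisons.

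A gene was called when its ratio was at least 1.5-fold either way, among genes with at least 20 CPM in 1 library of the pair. In dorsal basal cells 4 of the 8 genes had that level, and 3 were called lower in the knockout (Cald1, Tpm1 and Tpm4) and none higher, where 19.3% of all genes were called lower and 3.57% higher. In ventral basal cells 5 of the 8 had it and Cald1 alone was called lower and none higher, where 1.56% of all genes were lower and 0.928% higher. Between regions, 2 genes were called higher in control dorsal than in control ventral basal cells (Tpm2 and Tpm4; 6.92% of all genes) and 2 lower (Cald1 and Acta2; 9.45%). In knockout cells 1 was called higher dorsally (Tpm2; 6.27%) and 2 lower (Cald1 and Acta2; 21.5%). As the genes were chosen with these comparisons known, the counts are a description. Size factors moved all dorsal knockout over control ratios by 0.12 and all dorsal over ventral ratios of the knockouts by 0.15 on the log2 scale.

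Within dorsal basal cells, Tpm2 and Cald1 were high in different cells. Cells with a UMI of Krt13, a keratin of the stratified hillock patches, made up 18.5% of knockout dorsal and 24.02% of control dorsal basal cells. They had 171 CPM of Tpm2 in the knockout and 126 in the control. Dorsal cells with no Krt13 UMI had 35.2 in the knockout and 42.6 in the control. Cald1 ran the other way, with 8.23 in knockout and 23.65 in control cells with a Krt13 UMI, against 15.3 and 58.5 in those without one. Cells with a Krt13 UMI were also deeper, at a median of 31420 UMIs against 19421 in the knockout and 22345 against 14900 in the control, and the part of depth was not tested. Without them, Tpm2 was still higher in dorsal than in ventral cells, at 35.2 and 14.9 CPM in knockout dorsal and knockout ventral trachea and 42.6 and 18.8 in control dorsal and control ventral trachea.

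As class sums, dividing basal cells, those with UMIs of at least 2 of 6 cell cycle genes, had more Tpm2 than other basal cells in every library. They had 187 CPM of Tpm2 in knockout dorsal, 126 in control dorsal, 250 in knockout ventral and 115 in control ventral trachea. Basal cells that were not dividing had 63.8, 64.8, 10.3 and 17.95 in the same order. Dividing cells were few, at 35, 139, 7 and 21, of which 3, 28, 2 and 3 were Krt14-high. The 2 knockout ventral Krt14-high cells with most Acta2 (106 and 92 UMIs) held 37 and 19 Tpm2 UMIs. Knockout ventral basal cells had 182 Tpm2 UMIs in all. Leaving out dividing cells also lowered the ventral knockout over control ratio of Acta2. How far the Tpm2 level of dividing knockout ventral cells rests on these 2 cells was not tested. Without dividing cells the ventral knockout over control ratio of Tpm2 was 0.576, with both levels under the 20 CPM required for a call.

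**Figure D4:**
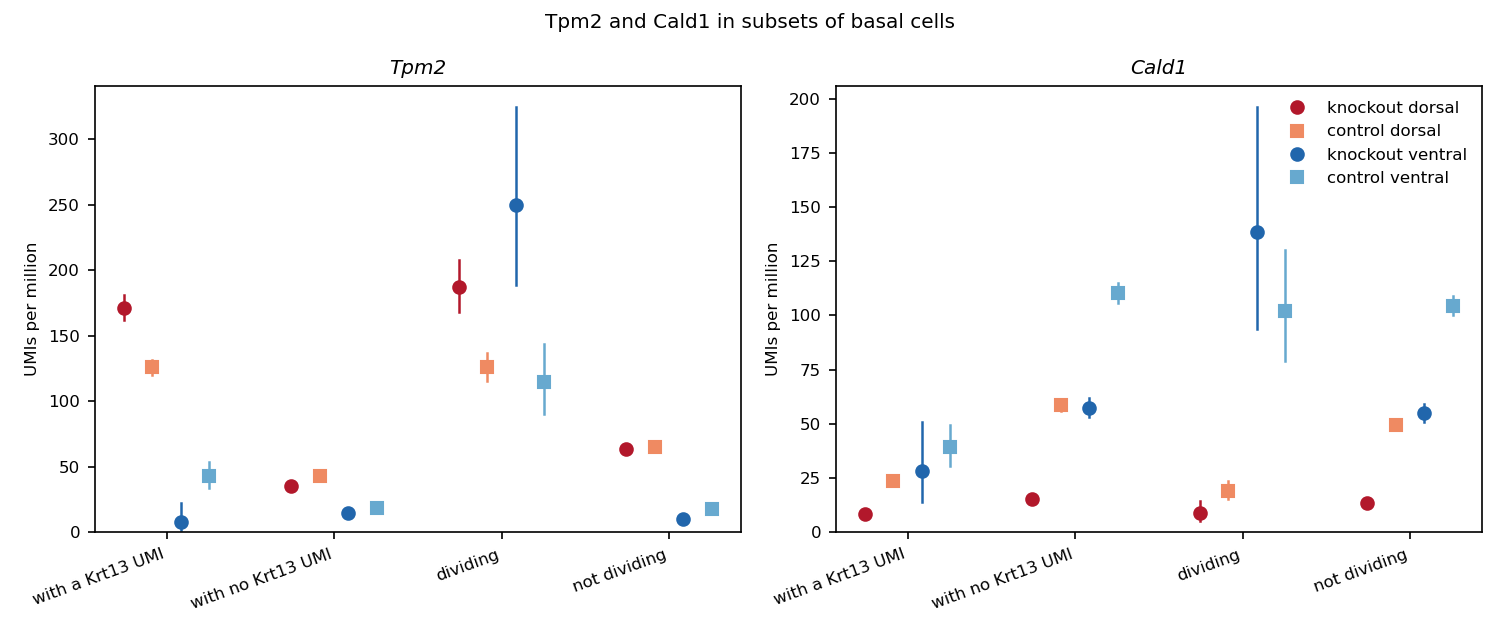
CPM of Tpm2 (left) and Cald1 (right) in basal cells with and without a Krt13 UMI and in dividing and other basal cells, with 1 point per library and 95% counting intervals. Tpm2 is highest in dorsal cells with a Krt13 UMI and in dividing cells of all 4 libraries, and Cald1 is lower in cells with a Krt13 UMI in all 4. Dividing cells numbered 35 in knockout dorsal, 139 in control dorsal, 7 in knockout ventral and 21 in control ventral trachea.

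Acta2 (smooth muscle actin), Tagln (transgelin, an actin-binding protein of smooth muscle), Myl9 (the smooth muscle regulatory light chain) and Cnn1 (calponin) were all but absent from most basal cells. In Krt14-low basal cells, which held 994, 2150, 510 and 898 of the basal cells, Acta2 had 1.75 CPM in knockout dorsal, 1.92 in control dorsal, 1.19 in knockout ventral and 1.78 in control ventral trachea. Immune cells had 2.16, 3.36, 0 and 1.62, the 0 of knockout ventral allowing up to 3 counts. The basal level without Krt14-high cells was thus at or below that of immune cells in both dorsal libraries and close to it in control ventral trachea.

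Krt14-high basal cells (at least 5 Krt14 UMIs per 10000) held these genes at higher levels in ventral than in dorsal trachea. They numbered 13 in knockout dorsal, 127 in control dorsal, 37 in knockout ventral and 36 in control ventral trachea. Acta2 had 0 and 1.16 CPM in the knockout dorsal and control dorsal cells, against 487 and 882 in the knockout ventral and control ventral ones. Tagln had 1.85 and 0.580 dorsally, against 27.7 and 357 ventrally. Myl9 had 1.85 and 0.870 dorsally, against 70.1 and 129 ventrally. Cnn1 was detected above 2 UMIs in the control ventral cells only, at 40.2 CPM. The dorsal cells instead held Krt13 at 961 CPM in the knockout and 2037 in the control, while none of the ventral cells had a Krt13 UMI. Dcn, a fibroblast marker, also differed, at 18.5 and 82.1 CPM in knockout dorsal and control dorsal Krt14-high cells and 724 and 629 in knockout ventral and control ventral ones. The other 5 fibroblast markers were each at most 5.74 in all 4, and their part and that of Dcn in the result was not tested.

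Cald1 also depended on the region of the Krt14-high cells. Tpm2 in these cells was higher dorsally in the knockouts but higher ventrally in the controls. Cald1 had 1.85 and 7.54 CPM in knockout dorsal and control dorsal Krt14-high cells, and 173 and 357 in knockout ventral and control ventral ones. In Krt14-low cells Cald1 had 13.6 and 50.1 dorsally and 50.3 and 96.2 ventrally in the knockout and the control. Tpm2 had 345 and 215 in knockout dorsal and control dorsal Krt14-high cells, and 171 and 332 in knockout ventral and control ventral ones. As class sums, Tpm2 was therefore high in Krt14-high cells of both regions and Cald1 in ventral ones alone among these 4 libraries. Ventrally, Tpm2 was concentrated in the few Krt14-high cells with at least 3 Acta2 UMIs, at 663 CPM in knockout ventral and 1116 in control ventral trachea. The other ventral Krt14-high cells had 27.4 and 47.0 CPM of Tpm2 in the same order. No dorsal Krt14-high cell had 3 Acta2 UMIs.

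Both classes come from every library, so Krt14-high was tested against Krt14-low with the 4 libraries as blocks by edgeR's quasi-likelihood test with Benjamini-Hochberg adjustment over 13081 genes. Tpm2 rose by 3.32 on the log2 scale (SE 0.49, edgeR adjusted p = 0.0069, higher in 4 of 4 libraries) and Tpm4 rose by 0.84 (SE 0.18, edgeR adjusted p = 0.032, higher in 4 of 4). These were the 2 genes called among 7 tested, where 2.35% of all genes were called higher and 2.29% lower, and no member was called lower. Acta2 (5.655, SE 1.68, edgeR adjusted p = 0.10), Myl9 (4.425, edgeR adjusted p = 0.15), Tagln (4.01, edgeR adjusted p = 0.15), Tpm1 (0.39, SE 0.15, edgeR adjusted p = 0.20) and Cald1 (0.34, SE 0.71, edgeR adjusted p = 0.88) did not pass, and Cnn1 had too few UMIs to be tested. Without the library block neither Tpm2 nor Tpm4 passed (edgeR adjusted p = 0.14 and 0.24). Without control ventral trachea the Tpm4 value was 0.70 (edgeR adjusted p = 0.16), and without knockout dorsal trachea it was 0.72 (edgeR adjusted p = 0.13). Without control dorsal trachea 5 genes were called higher, Acta2, Myl9 and Tagln joining.

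The class effect was then fitted separately in the dorsal and the ventral libraries, a step chosen after these values were seen and resting on 2 libraries per region. Cald1 was lower in Krt14-high than in Krt14-low cells dorsally, by -2.68 on the log2 scale, and higher ventrally, by 1.72, a difference of -4.395 (SE 0.31, edgeR adjusted p = 1e-07). Tpm2 was higher in both, by 2.10 dorsally and 4.73 ventrally, and the difference of -2.63 (SE 0.24) also passed (edgeR adjusted p = 2e-06). The ventral Tpm2 value rests largely on the few cells with at least 3 Acta2 UMIs. Tpm2 was chosen for its higher level in dorsal basal cells, most of which are Krt14-low. Its difference between regions therefore draws on the values by which it was chosen and is a description. Acta2, Myl9 and Tagln were higher ventrally by 8.73, 7.42 and 6.77 and not dorsally (-0.89, -1.14 and -0.84), with edgeR adjusted p of 1.19e-10, 7.14e-06 and 0.000399 for the difference. These 3 fitted values rest on 0 to 4 UMIs per gene in the dorsal Krt14-high cells, so their size depends on the fit. Tpm1 and Tpm4 gave differences of -0.12 and 0.06 (edgeR adjusted p = 0.90 and 0.96). Over all genes the difference was called below 0 for 2.03% and above 0 for 1.87%, and as the step was chosen from these values no count over the 8 genes is read from it.

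The ventral signal of Acta2, Tagln and Myl9 came from a few cells, whereas that of Cald1 was not confined to them. Of the Krt14-high cells, 7 of 37 in knockout ventral (18.9%, exact 95% interval 7.96% to 35.2%) and 6 of 36 in control ventral trachea (16.7%, 6.37% to 32.8%) had at least 3 Acta2 UMIs, against 0 of 13 and 0 of 127 in knockout dorsal and control dorsal trachea. Cald1 had 498 CPM in these cells of knockout ventral and 523 in those of control ventral trachea. The other Krt14-high cells had 77.9 and 297 CPM of Cald1 in the same order. The 7 knockout cells had between 3 and 106 Acta2 UMIs and together 16 Tagln UMIs and no Cnn1 or Myh11 UMI. The 6 control cells had between 5 and 435 Acta2 UMIs and together 248 Tagln UMIs, 206 of which were in 1 cell. Cnn1 was found in 4 of the control cells, at 15, 10, 1 and 1 UMIs, and the cells with 15 and 10 also carried Myh11, at 8 and 3 UMIs. Des, a filament gene of smooth muscle, was at 0 in all 13 cells, and Krt14, Krt5 and Trp63 were present in each, with at least 12, 3 and 1 UMIs.

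The control ventral cells of this kind depended on how doublets (barcodes with 2 cells) were called. At Scrublet's automatic threshold none of them was removed. At a fixed rate of 0.4% per 1000 barcodes in every library, an alternative added after the data were seen, 4 of the 6 were removed, and with them 601 of 612 Acta2 UMIs. Knockout ventral trachea had this rate from the start, so its 7 cells, with 293 Acta2 UMIs, had already passed it and are no comparison for the control cells. With the 4 cells removed, the Acta2 ratio in all basal cells was 14.1 between knockout ventral and control ventral trachea, against 0.854 (0.744 to 0.979) with them, and it was 1.07 between control dorsal and control ventral trachea, against 0.0632. Without dividing cells the ventral knockout over control ratio of Acta2 was 0.313. With the fixed rate, all 5 differences between regions given above still passed, Tagln with the highest edgeR adjusted p (0.0207). Whether these cells are doublets was not tested further. Oxtr, a receptor gene of contracting myoepithelium, was at 0 in Krt14-high cells of all 4 libraries. It was also at 0 in the smooth muscle class of all 4 and at most 0.256 CPM in any class. Its absence here therefore does not describe these cells. Of the 8 myoepithelial markers 5 had a UMI in the knockout ventral and 7 in the control ventral Krt14-high cells. Their summed levels were 2873 and 3368 CPM, Krt14 included. In knockout dorsal and control dorsal Krt14-high cells 4 and 6 of the 8 had a UMI, with sums of 1462 and 2571. Krt14, by which the class was chosen, made up 2314 and 2027 CPM of the ventral sums and 1456 and 2562 of the dorsal ones. These sums therefore do not compare the regions. The summed 8 smooth muscle markers, which leave out Krt14, stood at 9.28 and 4.64 CPM in knockout dorsal and control dorsal Krt14-high cells. In knockout ventral and control ventral ones they stood at 532 and 1309.

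**Figure D5:**
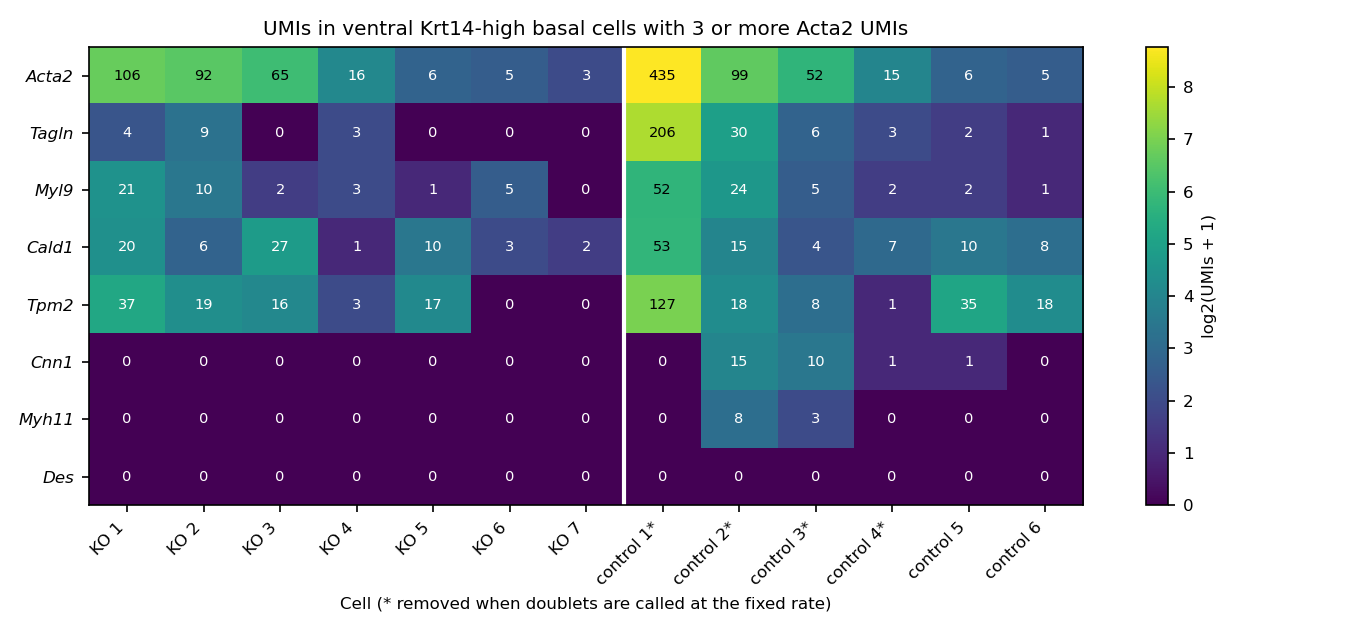
UMIs of 8 smooth muscle and actin-binding genes (rows) in the 13 ventral Krt14-high basal cells with at least 3 Acta2 UMIs (columns), coloured by log2(UMIs + 1), with 7 knockout cells left of 6 control cells. The highest Acta2 and Tagln values, 435 and 206, are in 1 control cell, Cnn1 and Myh11 are highest in 2 other control cells, and Des is 0 throughout.

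Acta2 and Myl9, both high in these ventral cells, are textbook targets of serum response factor, which binds the CArG box, CC and GG around 6 letters of A or T. The promoter windows below run from 250 bases before to 50 bases after the annotated start, from RefSeq on GRCm38.p6, with CArG letters in capitals, allowing 1 G or C among the 6. They lie at chr2:156775214-156775513 (plus strand, Myl9) and chr19:34255324-34255623 (minus strand, Acta2).
Myl9: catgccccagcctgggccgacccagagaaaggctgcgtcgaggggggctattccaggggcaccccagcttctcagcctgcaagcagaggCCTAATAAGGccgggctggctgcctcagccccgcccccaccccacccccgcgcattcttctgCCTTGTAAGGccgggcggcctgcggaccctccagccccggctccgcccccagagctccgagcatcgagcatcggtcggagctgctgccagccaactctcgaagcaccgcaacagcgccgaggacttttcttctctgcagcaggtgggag
Acta2: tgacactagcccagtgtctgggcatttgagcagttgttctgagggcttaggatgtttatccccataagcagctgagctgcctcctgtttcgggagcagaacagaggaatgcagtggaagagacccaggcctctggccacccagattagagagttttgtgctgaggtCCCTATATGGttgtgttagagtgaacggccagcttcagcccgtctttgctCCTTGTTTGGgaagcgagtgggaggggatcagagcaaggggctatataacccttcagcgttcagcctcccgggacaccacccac

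A strict CArG box was found on either strand in the Myl9 window alone among the 7 genes with an entry, 161 to 152 bases before the start, and 1.63% of 32851 promoter windows hold one. A looser search, with 1 other letter allowed, was added after the strict one had been run. In it the Myl9 and Acta2 windows each held 2 matches. Those of Acta2 lay at 84 to 75 and 34 to 25 bases before the start. Of all windows 9.98% hold at least 1 such match. The windows of Tpm1, Tpm2, Tpm4 and Cnn1 and both of Cald1 (chr6:34598254-34598553 and chr6:34709194-34709493) had no match, which says only that these letters are not in these windows. Srf itself had ratios of 0.430 dorsal and 1.07 ventral, knockout over control, in basal cells. It was the 1 gene called lower dorsally of 4 tested genes of serum response factor and its partners, where 19.3% of all genes were, and none was called ventrally.

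Basal cells were next compared with secretory cells, again with libraries as blocks and over 14735 genes. Tpm2 rose by 4.49 on the log2 scale (SE 0.31, edgeR adjusted p = 2.87e-05), Acta2 by 2.42 (SE 0.72, edgeR adjusted p = 0.025), Cald1 by 1.335 (SE 0.20, edgeR adjusted p = 0.0012) and Tpm1 by 0.93 (SE 0.08, edgeR adjusted p = 9.96e-05). Tpm4 fell by 0.26 (SE 0.08, edgeR adjusted p = 0.027), a call lost with each library left out in turn (edgeR adjusted p = 0.057 to 0.10), with no replicate block (adjusted p = 0.45), with no filter on low counts (adjusted p = 0.062) and with a stricter secretory gate (adjusted p = 0.067). Myl9 (1.03, edgeR adjusted p = 0.052) and Tagln (1.01, edgeR adjusted p = 0.21) did not pass. The 4 genes called higher and 1 lower of 7 tested stand beside 25.1% and 26.3% of all genes. The sign of Tpm4 depended on the scaling: with total UMIs in place of TMM its value was 0.61, and its level was higher in basal than in secretory cells of every library (112 and 74.9 CPM in knockout dorsal trachea, for example). Acta2 no longer passed without knockout ventral trachea (1.84, edgeR adjusted p = 0.081) or without control ventral trachea (1.81, edgeR adjusted p = 0.11), nor did Acta2 pass with doublets removed at the fixed rate (1.59, edgeR adjusted p = 0.094).

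In fibroblasts, connective tissue cells outside the epithelium, Acta2 and Tagln were lower in both knockout libraries. Acta2 had 23.3 CPM in knockout dorsal and 68.3 in control dorsal fibroblasts, and 11.8 in knockout ventral and 41.2 in control ventral ones. Tagln had 12.4 and 29.5 in knockout dorsal and control dorsal fibroblasts, and 11.1 and 23.3 in knockout ventral and control ventral ones. The knockout libraries lay below both controls for each gene. The ratios were 0.341 (0.305 to 0.380) and 0.285 (0.243 to 0.333) for Acta2, and 0.420 (0.360 to 0.490) and 0.475 (0.3999 to 0.562) for Tagln. These 2 of 7 tested genes were called lower in each region, where 18.6% of all genes were called lower dorsally and 2.1% ventrally. Of fibroblasts thinned to 5000 UMIs, 5.31% in knockout dorsal and 13.7% in control dorsal, and 3.10% in knockout ventral and 7.72% in control ventral trachea had an Acta2 UMI. Myh11, which marks smooth muscle, moved with them, at 2.22 and 3.85 CPM in knockout dorsal and control dorsal fibroblasts and 6.19 and 10.3 in knockout ventral and control ventral ones. The summed 5 pericyte markers stood at 145 and 198, and at 183 and 192, in the same order, and the part of such cells in the result was not tested. The collagen genes of fibroblasts were lower too, Col1a1 at 485 and 1620 CPM in knockout dorsal and control dorsal and 614 and 1553 in knockout ventral and control ventral fibroblasts. Col3a1 had 509 and 1939, and 549 and 1466, and Col1a2, by which the class was chosen, 710 and 1617, and 674 and 1496, in the same order. Dcn, another fibroblast gene, had 14524 and 13229, and 13247 and 13361, and the part of the collagen shift in the result was not tested. Cald1, Tpm2, Tpm4, Tpm1 and Myl9 stayed within 1.5-fold in fibroblasts of both regions.

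The smooth muscle class, chosen by Myh11 and Acta2 themselves, held 6, 34, 16 and 22 cells and is a reference for the upper end of these genes. Acta2 had 6300, 13338, 8295 and 3249 CPM in knockout dorsal, control dorsal, knockout ventral and control ventral trachea. Cnn1 had 196, 2537, 129 and 514 and Des 114, 2395, 161 and 12.2 in the same order, so that the control dorsal cells stood apart. All 5 pericyte markers were present in the class in every library, with a summed level between 412 and 979 CPM, against 0 UMIs of Rgs5, Kcnj8, Abcc9 and Pdgfrb in Krt14-high basal cells. Notch3, the other pericyte marker, had 1.855, 6.96, 4.89 and 1.44 CPM in Krt14-high cells of the libraries in the same order. In the smooth muscle class it had 65.3, 36.9, 115 and 9.19. The makeup of the smooth muscle class therefore differed between libraries, and no ratio is drawn from it.

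The wider actin machinery of basal cells was read from lists of related genes. Of 28 tested genes of actin binding and adhesion, 9 were called lower and none higher in knockout dorsal cells, with a median log2 ratio of -0.37 against -0.17 over all genes. Of 16 tested genes of non-muscle myosin and its control, 5 were lower and none higher (median -0.53). In ventral cells the counts were 1 of 27 (median -0.07) and 0 of 15 (median -0.08), with -0.01 over all genes. Pdlim5 and Pdlim7, adaptors between alpha-actinin and signalling proteins, had ratios of 0.345 and 0.413 dorsal and 0.768 and 0.820 ventral. Rock2, a kinase that raises myosin light chain phosphorylation, and Myh9, a heavy chain of non-muscle myosin, had 0.536 and 0.603 dorsal and 0.882 and 0.917 ventral. The lists lie on the same side as the general shift of the dorsal pair, in which 19.3% of all genes were called lower.

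Between regions, Tagln2 and Pdlim1 resembled Tpm2. Tagln2, the transgelin of non-muscle cells, had 613 and 215 CPM in knockout dorsal and knockout ventral and 670 and 223 in control dorsal and control ventral basal cells, ratios of 2.85 and 2.998. Pdlim1, an adaptor of alpha-actinin, had ratios of 2.43 and 2.65. Enah, which promotes filament growth at cell edges, lay on the other side with 0.553 and 0.594. Of 28 tested genes of actin binding and adhesion, 7 were called higher and 1 lower in control dorsal than in control ventral cells, where 6.92% of all genes were higher and 9.45% lower. Of 27 tested in the knockouts 1 was higher and 5 lower, near the 6.27% and 21.5% of all genes. The median log2 ratio of the list was -0.15 in the knockouts and 0.43 in the controls, against -0.13 and 0.04 over all genes. Both knockout over control and both region comparisons share libraries, so these ratios are not independent of each other.

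Across the 24 sums of 6 cell classes and 4 libraries, the 6 pairs among the 4 smooth muscle genes correlated at 0.87 to 0.98 and the other pairs of the 8 genes at 0.19 to 0.86. The Pearson correlation of log2(CPM + 1) was 0.98 between Tagln and Acta2, 0.96 between Myl9 and Acta2 and 0.95 between Tagln and Cnn1. The ranges nearly met, since it was 0.87 between Myl9 and Cnn1, 0.86 between Cald1 and Acta2 and 0.84 between Tpm1 and Tpm2. It was 0.76 between Cald1 and Tpm2, 0.37 between Cald1 and Tpm4 and 0.19 between Tpm1 and Tpm4. Among 11040 genes, Cald1 was most like Slc4a3, Rbpms and Rasd1 (0.93, 0.92 and 0.92), and Tpm1 most like Csrp1, Actn1 and Vcl (0.99, 0.94 and 0.94). Tpm2 was most like Ndufb9, Col18a1 and Fstl3 (0.93, 0.93 and 0.93), and Tpm4 most like Atp1b3, Tubb6 and Clic4 (0.91, 0.90 and 0.90). Myl9, Tagln, Cnn1 and Acta2 each had another of the 4 among their 3 nearest genes, beside Synpo2, Myh11, Sbspon and Kcnma1. Points of 1 library share its depth and free RNA, and the smooth muscle class was chosen by Acta2, so these values describe the classes and carry no test.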

How the data were processed

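Single-cell 5′ RNA libraries of dissociated trachea were deposited as matrices of UMI counts per gene and barcode, made by the authors with Cell Ranger 10.0.0 on GRCm39, per the submitters' processing notes. Barcodes with fewer than 500 genes or over 15% mitochondrial UMIs were removed. Scrublet (scanpy 1.11.5) marked doublets by the threshold it set itself, except in knockout ventral trachea, where that took under 0.5% of cells and the rate was fixed at 0.4% for every 1000 barcodes. Cells were put into classes by marker UMIs without clustering, and UMIs were summed by class and library and divided by the class total. Ratios have conditional binomial 95% intervals and shares exact Clopper-Pearson ones, for counting error only. Class effects were tested on summed counts with edgeR 4.0.16 in R 4.3.3, with TMM scaling, the library as block and adjusted p under 0.05; libraries pair the 2 classes because both come from the same cell suspension. DESeq2 1.42.0 was an alternative. The edgeR step was tested on simulated data. Between Krt14-high and Krt14-low cells it recovered 38% of 2-fold and 84% of 4-fold changes. Between basal and secretory cells it recovered 72% and 97%. A gene that did not pass is therefore not shown to be unchanged. The 8 genes, the gene lists and the promoter search were chosen with earlier results of these data known. Named list genes are those past 1.5-fold in 1 pair or both and on the same side in both pairs, up to 5 per list. The ratios of 1 further list gene are not reported here.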

Additional observations from a re-analysis of the deposited data

Results flagged for a closer look

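The Krt14-high effect on Cald1, Tpm2, Myl9, Tagln and Acta2 differed between the dorsal and the ventral libraries by edgeR's test of the difference. The step was chosen after these values were seen and rests on 2 libraries per region. Over all genes the difference was called below 0 for 2.03% and above 0 for 1.87%. The Myl9, Tagln and Acta2 values rest on 0 to 4 UMIs per gene in the dorsal Krt14-high cells. On the log2 scale the dorsal minus ventral difference was -4.395 for Cald1, -2.632 for Tpm2, -8.561 for Myl9, -7.605 for Tagln and -9.616 for Acta2. The Krt14-high cells of the regions also differed in Krt13 and Dcn, and in number, and the part of these in the difference was not tested.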

How the results depend on the processing

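In basal cells, the number of the 8 genes called lower in knockout ventral cells was 3 with a stricter basal gate, 2 without dividing cells and 3 with no filter on low values, against 1. The number lower in control dorsal than in control ventral cells was 1 without Krt14-high cells, 5 with no filter and 1 with doublets at the fixed rate, against 2, and in the knockouts it was 1 without Krt14-high cells and 1 without dividing cells, against 2. With no filter, 1 gene was higher in knockout dorsal cells (against 0) and 2 were higher dorsally in the knockouts (against 1). With doublets at the fixed rate 1 was higher in knockout ventral cells (against 0), and without cells with a Krt13 UMI 1 was higher dorsally in the controls (against 2). The dorsal over ventral ratio of Acta2 was 1.08 in controls and 1.48 in knockouts without Krt14-high cells, and 1.07 in controls with doublets at the fixed rate.

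Between Krt14-high and Krt14-low cells, 0 genes were called higher with no replicate block, 5 with no filter, and 1 to 5 with each library left out in turn, against 2. The Cald1 value was -0.35 by DESeq2 and lay between -0.53 (without control ventral) and 1.25 (without control dorsal trachea) with each library left out. Between basal and secretory cells, 7 genes were called higher without TMM, against 4. For the 1 called lower (Tpm4), 0 were called without TMM (value 0.61), with no replicate block, with no filter, with Scgb1a1 of at least 100 per 10000 and with each library left out in turn (0 to 0). The Tpm4 difference between regions was -0.059 without TMM, -0.042 with a Krt14 boundary of 10 per 10000, and between -0.36 and 0.57 with each library left out, and that of Tpm1 lay between -0.51 and 0.27 with each left out. The causes were not tested.

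Each group is 1 library, so no ratio between groups has a replicate check. Krt14-high cells numbered as few as 13, and a level of 0 UMIs there allows up to 5.57 CPM.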
